A study of Mus musculus with 20 samples.

Results

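Transcripts of proteasome genes were measured in hearts of male mice. A member was any gene whose single platform symbol starts with Psma, Psmb, Psmc, Psmd or Psme and a digit, with Psmb8 and Psmb9 left out, and it was represented by its brightest probe set. This gave 40 of the 8251 genes that a single symbol names on the array, on 51 of its 12488 probe sets. Of these genes 36 passed the filter on dim probe sets and were tested, and 4 did not (Psmc4, Psmd2, Psmd10 and Psmc3ip). The rule also took up Psmc3ip and Psme3ip1, which are named for a subunit they bind and are not subunits themselves. The probe sets for the activator gene Psme2 carry several symbols and were left out by the rule.

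The mice were B6/C3H hybrids housed singly, and each of 20 animals gave 1 heart and 1 array. Young controls were 5 months of age and old controls 30 months, both on a control diet, with 5 animals in each. The other groups of 5 were also 30 months of age and had received, from 15 months, either 1000 mg/kg alpha-tocopherol or 500 mg/kg each of alpha- and gamma-tocopherol in the diet. Tocopherols are forms of vitamin E, and the study asked how the heart's transcripts differ with age and with each diet. Old controls 1 and 4 are labelled as hybrids without the F1 (first-generation) mark that the other animals carry. No pooling is stated, and p-values measure the spread between animals.

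The proteasome is the large protease that degrades proteins tagged with ubiquitin. Its barrel-shaped core particle is built from rings of alpha subunits, which form the gates, and rings of beta subunits, some of which hold the proteolytic sites. A regulatory particle caps the core: its base contains ATPases that unfold substrates, and its lid removes ubiquitin chains. In heart muscle this system clears damaged and misfolded proteins, including sarcomere proteins. The transcription factors encoded by Nfe2l1 and Nfe2l2 act on antioxidant response elements, and Nfe2l1 is known as an inducer of proteasome genes.

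Promoter sequences are shown for members that changed with alpha-tocopherol and whose 250 bases before the start overlap no annotated gene, since these genes moved in both directions. They are from RefSeq on GRCm38.p6, written 5′ to 3′ along the gene. Capitals mark matches on either strand to the antioxidant response element, searched as TGACNNNGC and TGAGNNNGC, or to CCAAT, the box bound by NF-Y. No printed stretch holds both motifs.
The first 4 genes fell and the last 2 rose.
Psmb5 (chr14:54617996-54618245, minus strand): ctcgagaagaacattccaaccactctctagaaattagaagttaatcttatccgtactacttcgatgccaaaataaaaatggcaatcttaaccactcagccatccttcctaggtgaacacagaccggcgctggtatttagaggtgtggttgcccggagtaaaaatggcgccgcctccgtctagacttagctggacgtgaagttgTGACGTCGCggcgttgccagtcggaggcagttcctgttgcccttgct
Psmd12 (chr11:107479278-107479527, plus strand): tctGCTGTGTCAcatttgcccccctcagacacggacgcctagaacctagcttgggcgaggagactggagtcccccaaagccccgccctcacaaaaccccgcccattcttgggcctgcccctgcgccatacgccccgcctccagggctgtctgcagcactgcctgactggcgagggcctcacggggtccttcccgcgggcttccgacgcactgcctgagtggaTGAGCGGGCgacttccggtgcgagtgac
Psmd14 (chr2:61711444-61711693, plus strand): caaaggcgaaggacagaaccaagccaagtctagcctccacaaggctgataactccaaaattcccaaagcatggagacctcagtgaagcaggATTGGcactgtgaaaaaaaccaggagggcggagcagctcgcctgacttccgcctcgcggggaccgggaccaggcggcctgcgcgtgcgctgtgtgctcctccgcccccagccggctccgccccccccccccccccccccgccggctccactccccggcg
Psmd6 (chr14:14120946-14121195, minus strand): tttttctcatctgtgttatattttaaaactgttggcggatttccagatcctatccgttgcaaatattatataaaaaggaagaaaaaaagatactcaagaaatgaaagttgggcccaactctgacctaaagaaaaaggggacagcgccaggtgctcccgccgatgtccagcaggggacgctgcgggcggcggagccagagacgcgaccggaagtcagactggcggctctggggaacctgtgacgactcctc
Psmd1 (chr1:86064369-86064618, plus strand): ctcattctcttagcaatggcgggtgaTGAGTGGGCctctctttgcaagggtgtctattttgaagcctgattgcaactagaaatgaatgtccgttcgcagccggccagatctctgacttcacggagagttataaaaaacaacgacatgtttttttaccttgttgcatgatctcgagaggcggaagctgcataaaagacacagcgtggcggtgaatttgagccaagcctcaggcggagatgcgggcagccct
Psmd4 (chr3:95042615-95042864, minus strand): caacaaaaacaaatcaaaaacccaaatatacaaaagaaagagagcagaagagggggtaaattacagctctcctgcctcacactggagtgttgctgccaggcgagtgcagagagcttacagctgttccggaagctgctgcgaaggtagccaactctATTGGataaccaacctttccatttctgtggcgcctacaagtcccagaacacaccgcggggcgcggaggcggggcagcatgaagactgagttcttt
The Psmd12 stretch holds 2 element matches, those of Psmb5 and Psmd1 hold 1 each, and the others hold 0. Psmd14 and Psmd4 hold 1 CCAAT match each. Among the members that fell with alpha-tocopherol, 5 of 7 had a window with an element match, and among those that rose 1 of 2 with a window did. No share of all genes was counted in this way, and these numbers are too small to compare the directions. Psmc3ip and Psme3ip1 were not searched. Over all other members, 32 had windows, 34 in number, and 11 of the 32 members had a window with an element match. Counted by window, 12 (35.3%) held an element match against 23.0% of 32851 windows in the table. For CCAAT the share was 35.3% against 33.8%. A match of letters is a description of the sequence and not a site shown to be bound.

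Levels below are the deposited intensities, and differences between groups of 5 are taken on log2(intensity + 58) and given ± their standard error (SE). Adding 58 understates changes of dim probe sets. A member is said to rise or fall where limma's adjusted p (Benjamini-Hochberg over 7453 tested probe sets) was below 0.05. Precision is limited by how many arrays there are: SEs had a median of 0.128 for the members and 0.179 for all tested probe sets. Because whole hearts were used, fewer cells of a type and less RNA per cell cannot be told apart. The heart muscle markers Myh6, Tnnt2, Tnni3, Actc1 and Myl2 read at least 63394 on every array. Of 25 defining markers of heart muscle and 7 other cell types 24 were on the array. The lowest intensity of any probe set was 0.4, so a reading above 0 does not show that a marker was expressed. The T cell marker Cd3d read down to 18 and the skeletal muscle marker Tnnt3 down to 22.2, and both were too dim to be tested. Young control 3 stood apart with T cell transcripts, a summed intensity over 12 markers of 44478 against at most 6106 on the other arrays.

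**Figure D1:**
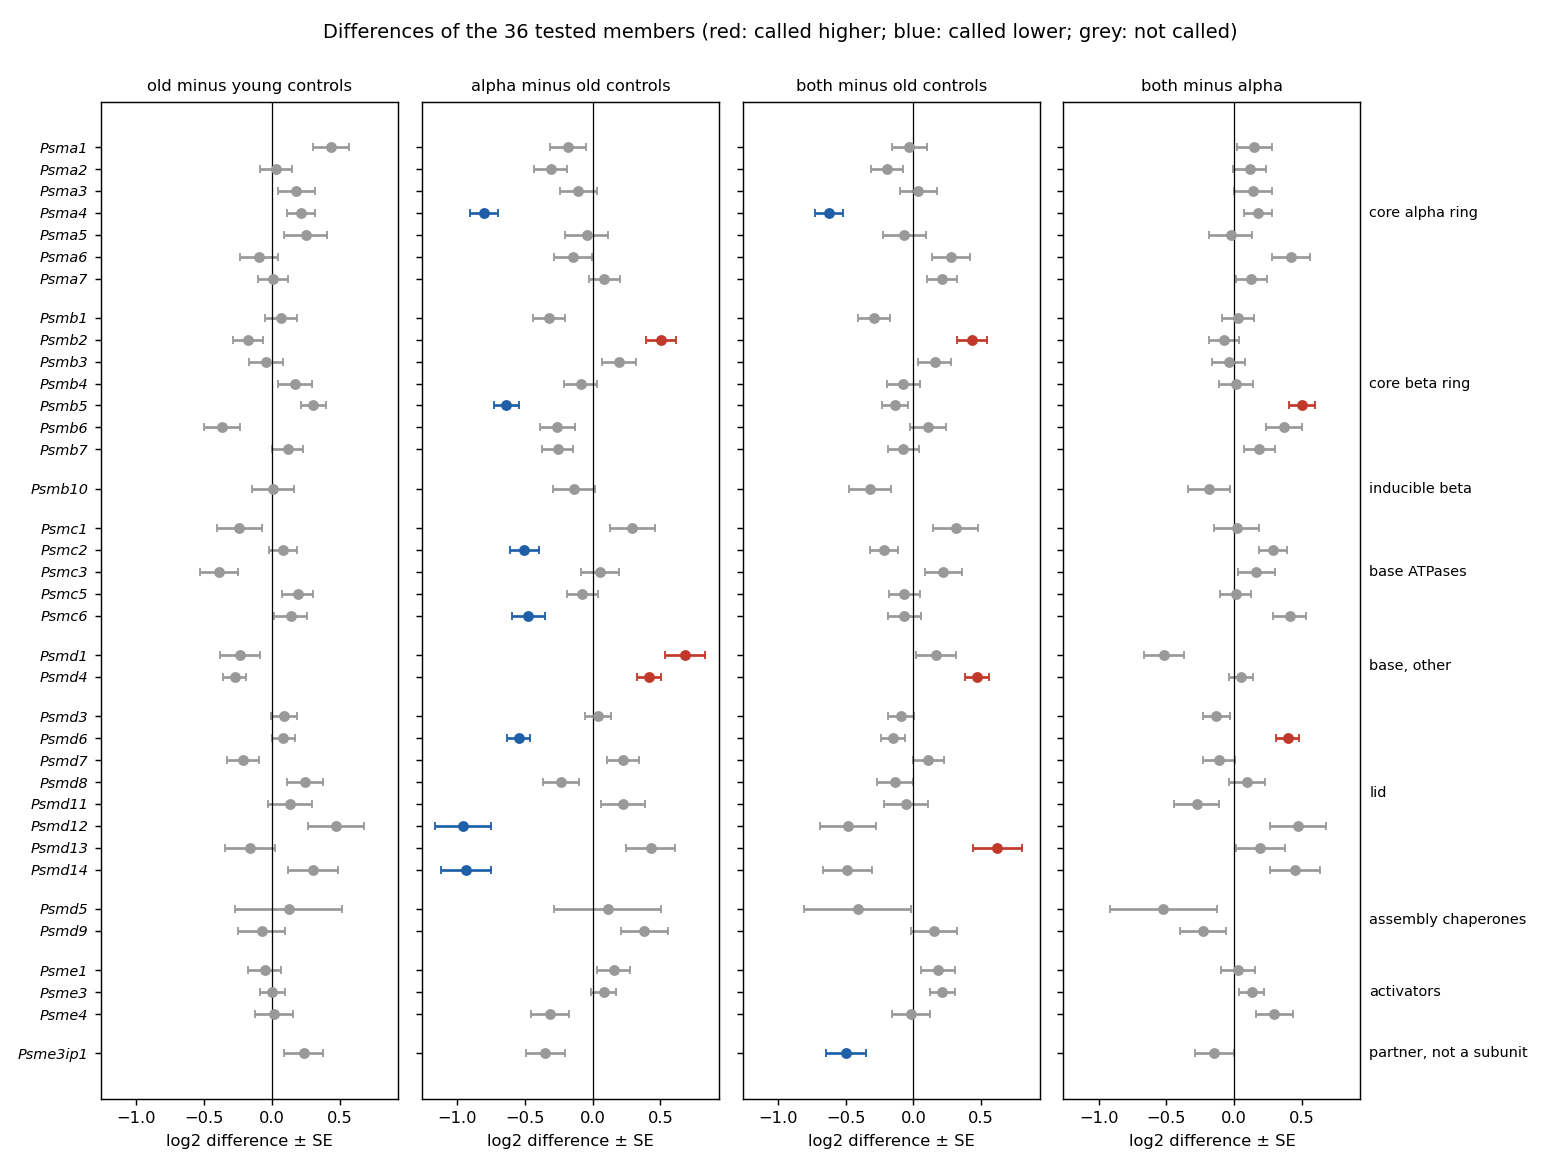
Differences of log2(intensity + 58) ± SE for the 36 tested members, ordered by their place in the proteasome, in 4 comparisons of groups of 5 animals. Red points were called higher and blue points lower (adjusted p below 0.05); no member was called with age, 10 with alpha-tocopherol, 5 with both tocopherols and 2 between the supplements.

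No proteasome gene passed the test between old and young control hearts. By limma 0 of 36 members were called, where 4.94% of all tested probe sets were (2.74% higher and 2.2% lower), and 7 members had an unadjusted p below 0.05. The members' median difference was 0.076, against 0.014 over all tested probe sets, and 24 of 36 differences were above 0. This median stayed above 0 in every alternative but ranged from 0.0241 without the filter to 0.0832, and was 0.0431 without young control 3 and 0.0467 without young control 5. These differences ran from -0.39 ± 0.14 for Psmc3, a base ATPase, to 0.47 ± 0.21 for the lid subunit Psmd12. The widest 95% interval was that of Psmd5, an assembly chaperone of the base, from -0.71 to 0.96.

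Psmb5 encodes the beta subunit that cleaves after hydrophobic residues. Its intensity was 6490, 5210, 6219, 6145 and 5901 in young controls and 7732, 8082, 6350, 7204 and 7801 in old controls. Only old control 3 lay within the range of the young, and the difference was 0.31 ± 0.09 (limma adjusted p = 0.058). The other, dimmer probe set of Psmb5 differed by -0.01 ± 0.25 (limma adjusted p = 0.99). Psmb6, which carries the caspase-like site, read 8543, 6662, 7286, 7775 and 7281 in young and 5433, 5253, 4526, 6527 and 7653 in old controls. Here 1 old animal, number 5, lay among the young, and the difference was -0.37 ± 0.13 (limma adjusted p = 0.11). The trypsin-like subunit gene Psmb7 differed by 0.12 ± 0.11 and the inducible Psmb10 by 0.01 ± 0.15, also without passing the test. The age differences of the catalytic genes thus had both signs.

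The polyubiquitin receptor Psmd4 was the member whose young and old groups did not overlap. Its intensity was 6124, 5760, 5710, 6088 and 5606 in young controls and 4603, 5064, 5327, 4784 and 4427 in old controls. Every old animal lay below every young one, with a difference of -0.27 ± 0.09 that did not pass the test (limma adjusted p = 0.071). Over all tested probe sets 7.02% had groups that did not overlap, 4.23% higher and 2.79% lower in old controls. The alpha ring gene Psma1 read 962 to 1399 in young and 1262 to 1922 in old controls, a difference of 0.44 ± 0.13 (limma adjusted p = 0.058). Several of these values lay near the threshold. Without old control 3, Psma1 (0.52 ± 0.13) and Psmb5 (0.36 ± 0.09) passed. Without young control 1, Psma1 (0.50 ± 0.14) passed, and without old control 5, Psmb6 (-0.47 ± 0.13) did. With array weights these 3 genes and Psmd4 passed, and the background was then 9.81%. Beside these values, 2 of 11 tested endothelial markers and 1 of 13 fibroblast markers rose with age, where 2.74% of all tested probe sets were called higher. The summed intensity of 6 adipocyte markers did not overlap, at 9341 to 13232 in young and 6315 to 7063 in old controls, although limma called 0 of the 4 tested (1 at an unadjusted p below 0.05). The part of these markers was not tested.

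Hearts of old mice fed alpha-tocopherol had lower levels of 7 proteasome genes and higher levels of 3 than old controls. The genes that fell were Psmd12 and Psmd14 of the lid, each by nearly 1 on the log2 scale, with the lid gene Psmd6, the base ATPases Psmc2 and Psmc6, the alpha subunit Psma4 and the catalytic Psmb5. Those that rose were Psmd1 and Psmd4 of the base and the beta subunit Psmb2. The share called, 27.8% of 36 members, was near the 21.7% of all tested probe sets, so the count does not set the members apart. Of all tested probe sets 8.94% were called higher and 12.8% lower. The members' median difference was -0.096, against -0.019 over all tested probe sets. It was -0.0298 with the hybridization covariate and -0.0416 with the 18S covariate described below, -0.149 without old controls 1 and 4, and -0.0623 without animal 3 of the alpha-tocopherol group.

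Psma4 forms part of the alpha ring. Its intensity was 8998, 9069, 9233, 9935 and 10021 in old controls and 5709, 5900, 5638, 5456 and 4385 with alpha-tocopherol. The groups were well apart, with every supplemented animal below the lowest control. The difference was -0.80 ± 0.10 (limma adjusted p = 2.1e-05), 1.74-fold on this scale. Psmb5 read 4805, 5200, 3884, 5030 and 4942 with the supplement, all below its lowest old control at 6350. It fell by 0.64 ± 0.09 on the log2 scale (limma adjusted p = 7.4e-05). A dimmer probe set for Psmb5 had the opposite sign, at 0.46 ± 0.25 (limma adjusted p = 0.19), and with the mean of both probe sets Psmb5 was at -0.09 ± 0.14 and no longer called. The other catalytic genes Psmb6 (-0.26 ± 0.13), Psmb7 (-0.26 ± 0.11) and Psmb10 (-0.14 ± 0.15) did not pass the test. Psmb7 passed without old control 3 (-0.36 ± 0.10) and Psmb10 without animal 4 of the alpha-tocopherol group (-0.33 ± 0.11). Psmb2, a beta subunit without a proteolytic site, read 7063, 7012, 5420, 6310 and 6929 in old controls and 9110, 10130, 10556, 9228 and 7564 with alpha-tocopherol. All supplemented animals lay above the controls, and it rose by 0.50 ± 0.11 (limma adjusted p = 0.0029). In the core particle as a group, 1 of 15 members rose and 2 fell, with a median of -0.14.

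The lid holds Psmd14, the metalloprotease that cuts ubiquitin chains from substrates. Its intensity was 3045, 2950, 2537, 3759 and 3019 in old controls and 1745, 1767, 1047, 1691 and 1685 with alpha-tocopherol. No values overlapped, and the difference was -0.94 ± 0.18 (limma adjusted p = 0.0010). Psmd12, a scaffold subunit of the lid, read 2838, 2386, 2119, 2683 and 1687 in old controls and 706, 1152, 1098, 1675 and 1398 with the supplement. The highest supplemented animal nearly reached the lowest control, and the gene fell by 0.95 ± 0.21 on the log2 scale (limma adjusted p = 0.0022). Psmd6, another lid scaffold, read 6063 to 6736 in old controls and 3955 to 4738 with alpha-tocopherol, a fall of 0.55 ± 0.09 (limma adjusted p = 0.00016). The lid gene Psmd13, in contrast, had a positive difference of 0.43 ± 0.18 that did not pass (limma adjusted p = 0.094). It passed without old control 5 (0.56 ± 0.18) but not without old control 3. Old control 3 read 997, against 1816 to 2704 in the other old controls and 2286 to 2760 with alpha-tocopherol. Of 8 lid members 3 fell and 0 rose, and 4 of the 8 differences were above 0.

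The base showed both directions. Among its ATPases, which thread the substrate into the core, Psmc2 fell by 0.50 ± 0.10 (limma adjusted p = 0.0017) and Psmc6 by 0.48 ± 0.12 (limma adjusted p = 0.0079) on the log2 scale. Psmc2 read 5007 to 6849 in old controls and 3334 to 4730 with the supplement, and Psmc6 8329 to 11278 and 6534 to 7956, with no overlap in either. Psmc6 was no longer called without old controls 1 and 4. The other 3 tested ATPases lay between -0.08 and 0.29, and none of these was called. Of 3 base members that are not ATPases, Psmd2 was too dim to be tested and the other 2 rose. Psmd1, the largest scaffold of the base, read 5936, 6491, 6334, 3632 and 5669 in old controls and 8877, 9115, 9702, 9193 and 7607 with alpha-tocopherol. Old control 4 lay far below the other controls, and the difference was 0.68 ± 0.15 (limma adjusted p = 0.0024). Without old control 4 it was still called (0.54 ± 0.13). All 10 members stayed called when any 1 animal was left out. Psmd4 read 5908, 6378, 5883, 8007 and 6383 with the supplement, above all its old controls, and rose by 0.42 ± 0.09 (limma adjusted p = 0.0017). In the regulatory particle 2 of 15 members rose and 5 fell, with a median of 0.04.

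Outside these particles, the 3 tested activator genes (Psme1, Psme3 and Psme4), whose products open the core gate without ATP hydrolysis, lay between -0.31 and 0.15, none of them called. Both tested assembly chaperones of the base were not called. One of them, Psmd9, had groups that did not overlap, with 1770 to 2146 in old controls and 2153 to 3188 with alpha-tocopherol (0.38 ± 0.17, limma adjusted p = 0.11). In all 12 of 36 members had groups that did not overlap, 4 higher and 8 lower, against 16.2% of all tested probe sets, 6.84% higher and 9.39% lower.

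**Figure D2:**
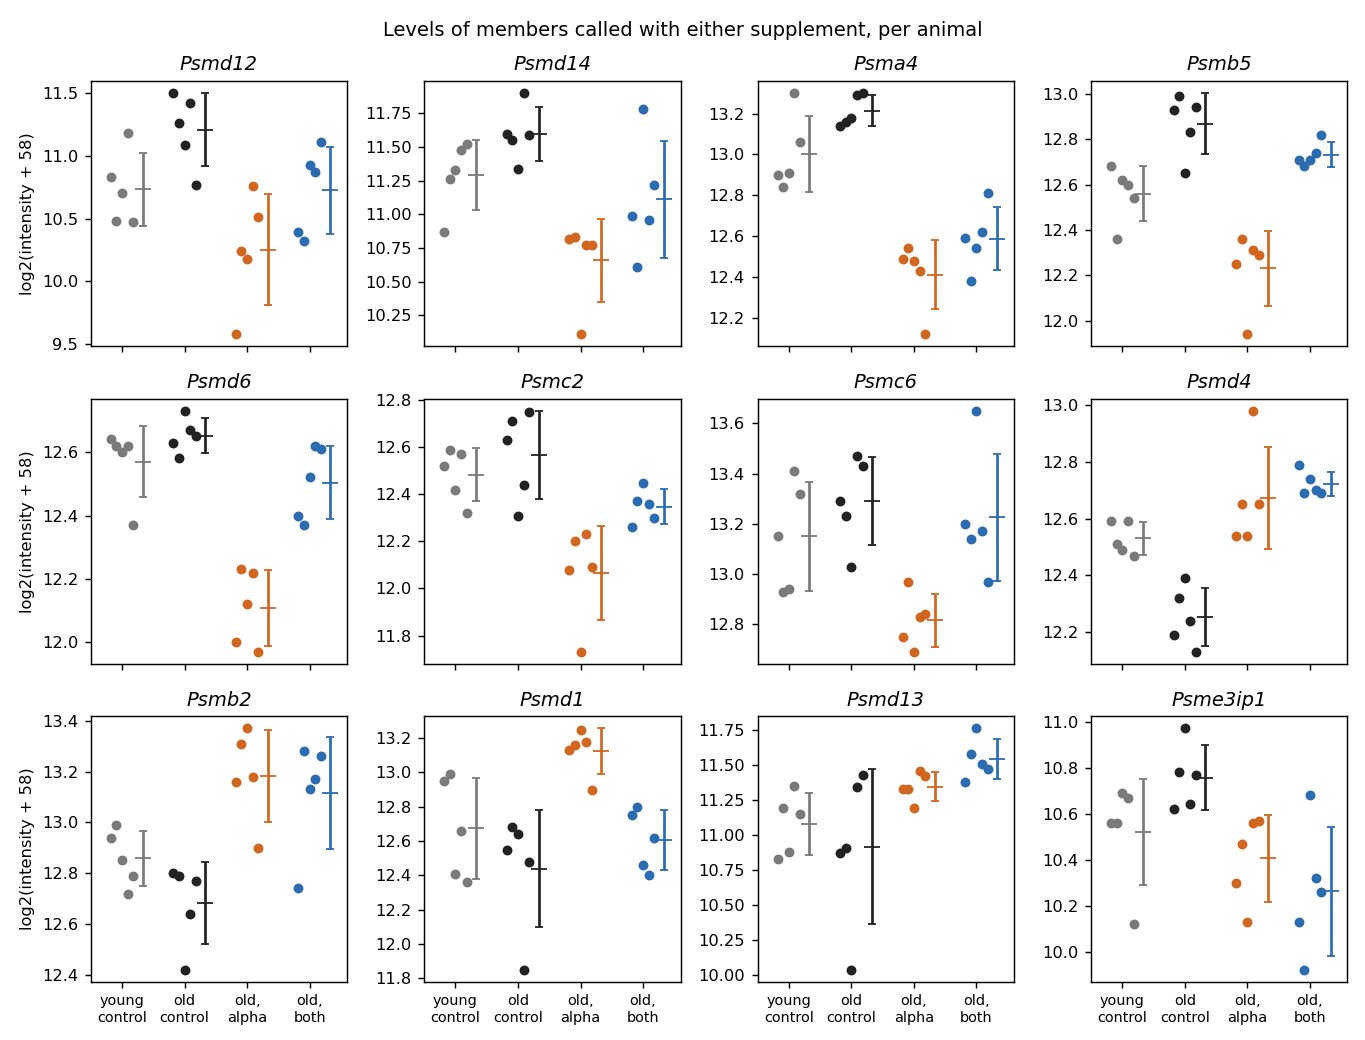
Levels of the 12 members called with either supplement, as log2(intensity + 58) for each animal (points) with group means ± SD (bars), 5 animals per group. Psma4 and Psmd4 separate both supplemented groups from old controls, while Psmb5 and Psmd6 are low with alpha-tocopherol and near the controls with both tocopherols.

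The arrays of the alpha-tocopherol group also read higher for signals that are no heart transcripts of interest. The bacterial hybridization controls differed by 0.85 on the log2 scale and the 18S ribosomal RNA signal by 1.66, and in both measures no supplemented array overlapped an old control array. By an exact permutation test, two-sided, p was 0.0079 for each, which 5 against 5 cannot go below, and 0.024 after Benjamini-Hochberg adjustment over 6 tests. With the hybridization level as a covariate 1 member was called, Psma4 (-0.81 ± 0.18, limma adjusted p = 0.027), and the background fell to 1.93%. With the 18S level 2 were called, Psma4 (-0.66 ± 0.16) and Psmb5 (-0.62 ± 0.15), with a background of 1.91%. All 10 members kept their sign in both fits. Psmd4 (0.41 ± 0.16 and 0.37 ± 0.14), Psmb2 (0.55 ± 0.20 and 0.56 ± 0.18), Psmc2 (-0.52 ± 0.19 and -0.45 ± 0.17) and Psmd6 (-0.48 ± 0.15 and -0.48 ± 0.14) kept differences of similar size with larger errors. Psmd12 was smaller with the hybridization covariate (-0.43 ± 0.34), and Psmc6 (-0.19 ± 0.18) and Psmd1 (0.29 ± 0.21) with the 18S covariate. With the hybridization covariate Psmc6 was larger (-0.747 ± 0.205) and Psmb5 was at -0.489 ± 0.161, neither called. Psmd14 was at -0.731 ± 0.322 with the hybridization and -0.632 ± 0.28 with the 18S covariate, not called in either. The part of these array differences in the members' changes was not tested further.

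**Figure D3:**
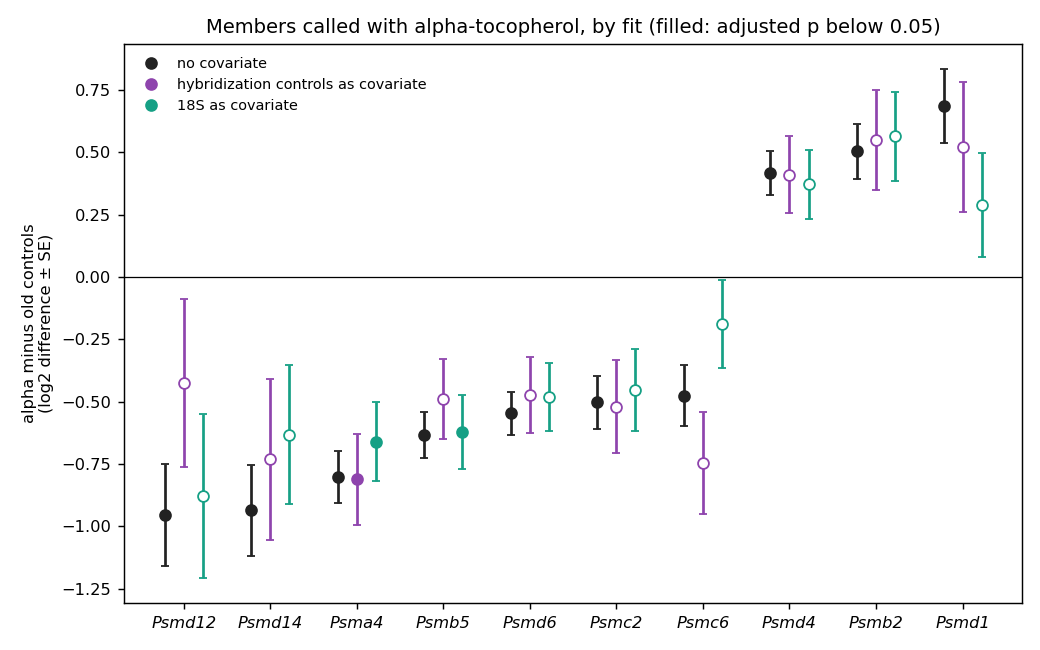
Difference between alpha-tocopherol and old control hearts (log2 ± SE, 5 animals per group) of the 10 called members without a covariate, with the hybridization control level and with the 18S level as a covariate. Filled points passed the test; every point keeps its side of 0, and Psma4 is filled in all 3 fits.

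Markers of other cell types moved in the same comparison. Of all tested probe sets 21.7% were called, 12.8% lower and 8.94% higher. Fibroblast markers fell in 8 of 13 tested genes and rose in 1, macrophage markers fell in 6 of 12, and liver markers in 4 of 6. Endothelial markers fell in 2 of 11 (18.2%), which is near the share of all tested probe sets. Heart muscle markers rose in 4 of 9, and skeletal muscle markers rose in 3 of 9 and fell in 1. None of 4 tested adipocyte markers and 3 tested T cell markers was called by limma, nor did any have an unadjusted p below 0.05. The summed intensity of 14 macrophage markers was 45271 to 63042 in old controls and 28046 to 48912 with alpha-tocopherol. For 13 fibroblast markers it was 88809 to 97403 and 66933 to 100308, for 10 liver markers 4885 to 23461 and 1673 to 2629, and for 9 heart muscle markers 677604 to 848824 and 795426 to 960959. Their part in the proteasome differences was not tested.

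With both tocopherols, 3 proteasome subunit genes were higher and 1 was lower than in old controls. Psmd4, Psmb2 and the lid gene Psmd13 rose, and Psma4 fell, as did Psme3ip1, which is no subunit. These 5 of 36 members are 13.9%, where 6.43% of all tested probe sets were called, 2.67% higher and 3.76% lower. The members' median was -0.06 and that of all tested probe sets -0.01. The sign of this median was not stable: it was 0.0067 without old controls 1 and 4, 0.0105 with the mean of a gene's probe sets and -0.0018 with the 18S covariate. Without single animals it ran from -0.083 to -0.0156, and it was nearest to 0 without old control 4 (-0.0156), animal 2 (-0.0237) or animal 4 (-0.0269) of the group fed both, and old control 1 (-0.03). The old controls are the same animals as in the comparisons above, so the values below are not independent of those.

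Psma4 read 6110, 5281, 5886, 6248 and 7119 with both tocopherols, again below every old control. It fell by 0.63 ± 0.10 on the log2 scale (limma adjusted p = 0.0013). Psmd4 read 7033, 6568, 6788, 6589 and 6572, above every old control and with a narrow spread, and rose by 0.47 ± 0.09 (limma adjusted p = 0.0030). These were the 2 members whose groups did not overlap, against 8.32% of all tested probe sets, 3.38% higher and 4.94% lower. Both stayed called without each animal in turn and with either covariate. The hybridization controls on these arrays differed from old controls by 0.28 (exact permutation p = 0.16) and the 18S signal by 0.52 (exact permutation p = 0.26), which does not show that they were alike.

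Psmb2 read 6761, 9870, 8925, 9132 and 9720. Animal 1 lay within the old controls and the other 4 lay above them, and the difference was 0.43 ± 0.11 (limma adjusted p = 0.024). It was not called without old control 3 (0.37 ± 0.11), old control 4 (0.42 ± 0.12), animal 2 (0.39 ± 0.12) or animal 5 (0.40 ± 0.12) of the group fed both. Psmd13 read 2605, 2996, 3419, 2863 and 2769 against 1816, 1864, 997, 2528 and 2704 in old controls. Old control 3 was lowest by far, and the difference of 0.62 ± 0.18 (limma adjusted p = 0.043) became 0.40 ± 0.13 without it, not called. Psmd13 was called in 2 of 10 fits that left out 1 animal. Psme3ip1 (-0.50 ± 0.15, limma adjusted p = 0.043) was called in 1 of 10 such fits. The 2 lid genes that fell most with alpha-tocopherol had values of the same sign here, Psmd14 -0.49 ± 0.18 and Psmd12 -0.48 ± 0.21, without passing the test (limma adjusted p = 0.11 and 0.16). Psmd14 passed without animal 3 of the group fed both (-0.65 ± 0.17). The catalytic genes Psmb5 (-0.13 ± 0.09), Psmb6 (0.11 ± 0.13), Psmb7 (-0.07 ± 0.11) and Psmb10 (-0.32 ± 0.15) did not pass. Beside these results, fibroblast markers fell in 4 of 13 genes and rose in 1, endothelial markers fell in 3 of 11, liver markers in 3 of 6 and macrophage markers in 1 of 12, and skeletal muscle markers rose in 1 of 9. Of all tested probe sets 3.76% were called lower and 2.67% higher. The summed macrophage markers read 25599 to 48870 and the fibroblast markers 64007 to 97762. Their part was not tested.

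Set against each other, the diets differed in Psmb5 and Psmd6, both of which were higher with both tocopherols than with alpha-tocopherol alone. Psmb5 read 6629, 6486, 6646, 6788 and 7178 with both, above all 5 alpha-tocopherol animals, and differed by 0.50 ± 0.09 (limma adjusted p = 0.031). Psmd6 read 5343, 5221, 5811, 6248 and 6199 with both, also above all alpha-tocopherol animals, and differed by 0.40 ± 0.09 (limma adjusted p = 0.042). These 2 of 36 members stood against 0.564% of all tested probe sets called, 0.309% higher and 0.255% lower. Psmb5 was not called without animal 3 of the alpha-tocopherol group (0.43 ± 0.09) or animals 3 (0.51 ± 0.10) or 4 (0.50 ± 0.10) of the group fed both. Psmd6 was called in 3 of 10 fits without 1 animal (0.36 to 0.43). Neither gene was called with either covariate or with the 2 groups fitted alone. Psmb5 was also not called with the mean of its probe sets (0.35 ± 0.14). Psmd6 was also not called without the filter, after quantile normalization or median centring, without the trend, with array weights or with the replicate block, and over all settings that left out no animal it was called in 4 of 13. The arrays of these groups also stood apart in both technical measures. The log2 hybridization level was 13.32 to 13.78 with alpha-tocopherol and 12.39 to 13.32 with both, nearly touching but not overlapping, and the 18S level was 12.21 to 12.74 and 9.90 to 11.98. Beyond the covariate fits, their part was not tested.

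The other 34 members did not pass the test. Psmc2 (0.29 ± 0.10) and Psmc6 (0.41 ± 0.12) were higher with both in all animals without passing the test, and Psmd1 (-0.52 ± 0.15, limma adjusted p = 0.094) was lower in all. With Psmb5 and Psmd6, 5 members had groups that did not overlap, against 3.9% of all tested probe sets, 2.31% higher and 1.6% lower. For Psma4 the difference was 0.18 ± 0.10 and for Psmd4 0.05 ± 0.09, the latter with a 95% interval from -0.13 to 0.24. Alpha-tocopherol was given at 1000 mg/kg in one diet and at 500 mg/kg in the other, so its dose and the presence of gamma-tocopherol cannot be told apart. The members' median was 0.11, against 0.01 over all tested probe sets. It was 0.044 with the 18S covariate, 0.0608 without animal 1 and 0.0704 without animal 3 of the alpha-tocopherol group, and 0.0632 without animal 3 of the group fed both.

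Array by array, the members of each particle were summarised by their median. The median over 15 core members, relative to the old control mean, lay between -0.22 and 0.07 on the old control arrays and between -0.32 and 0.01 on the alpha-tocopherol arrays. For 15 regulatory members these ranges were -0.12 to 0.16 and -0.09 to 0.19. The ranges of the supplemented and control arrays overlapped for both particles.

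**Figure D4:**
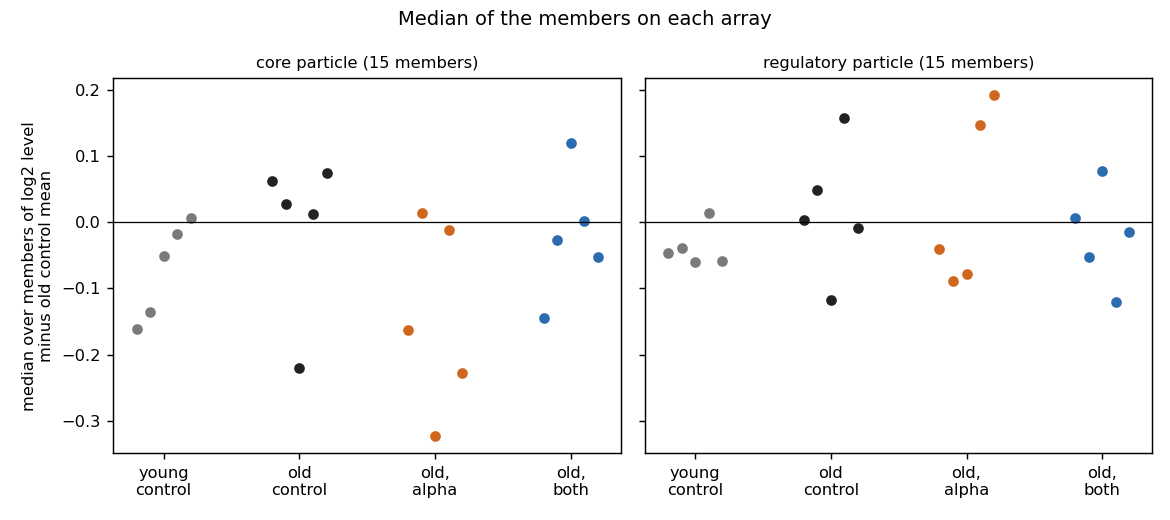
Median over 15 core members (left) and 15 regulatory members (right) of the log2 level minus the old control mean, with 1 point per array and 5 arrays per group. Points of all 4 groups overlap; the lowest core median, -0.32, is on an alpha-tocopherol array.

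The other probe sets of the members were compared in sign. In all 7 genes had 11 further probe sets, of which 7 were bright enough to be tested. In the alpha-tocopherol comparison 4 of 11 had the sign of the brightest probe set and in the age comparison 3 of 11. With both tocopherols 3 of 11 had it, and between the diets 7 of 11. The dimmer probe set of Psmb5 was at 0.67 ± 0.25 with both tocopherols (limma adjusted p = 0.11), where its brightest was at -0.13 ± 0.09. With alpha-tocopherol a second probe set for Psmb1, a beta ring gene, was called lower at -0.58 ± 0.15 (limma adjusted p = 0.0068). The brightest of Psmb1 was at -0.32 ± 0.12 there and not called. The third Psmb1 probe set, too dim to be tested, had the opposite sign at 1.70 ± 0.47. A dimmer probe set for the lid gene Psmd11 was called higher at 1.21 ± 0.35 (limma adjusted p = 0.018), where its brightest lay at 0.22 ± 0.16 and its other one at -0.22 ± 0.10. These genes were named after their values were seen. Of the 36 tested probe sets, 7 have names marking probes that are shared with other transcripts or were chosen by relaxed rules, among them those of Psmb5, Psmb7, Psmc3, Psmd9 and Psmd12.

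Genes around the proteasome were followed in lists of related genes. Their calls are to be read against the share of all tested probe sets called. This was 4.94% with age, 21.7% with alpha-tocopherol and 6.43% with both tocopherols. Of 7 tested genes for other subunits and assembly factors, Psmg2 (-0.99 ± 0.23) and Psmg1 (-0.52 ± 0.18) fell with alpha-tocopherol and Psmg4 (0.54 ± 0.10) rose. Psmg1 and Psmg2 form a chaperone that starts the alpha ring, and Psmg4 belongs to another chaperone of alpha ring assembly. With both tocopherols Psmg1 fell (-0.87 ± 0.18, limma adjusted p = 0.0076). None of the 7 passed with age, in limma or at an unadjusted p below 0.05 (0 genes). Of 7 tested transcriptional regulators 2 were called with alpha-tocopherol (28.6%), near the share of all tested probe sets. These were Nfe2l2 (-0.34 ± 0.12) and the NF-Y subunit Nfyc (-0.38 ± 0.12), and both fell. Nfe2l1 differed by -0.30 ± 0.09 with age (limma adjusted p = 0.058) and by 0.16 ± 0.09 with alpha-tocopherol, neither called.

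Genes that attach ubiquitin and its relatives were called in both directions. With alpha-tocopherol, of 17 tested conjugating enzymes 4 fell and 1 rose, where 21.7% of all tested probe sets were called. Ube2e1 (-0.88 ± 0.20), Ube2s (-0.66 ± 0.17), Ube2n (-0.38 ± 0.12) and Ube2b (-0.32 ± 0.09) fell, and Ube2r2 (0.33 ± 0.10) rose. Of the 3 tested genes of ubiquitin and its activation 2 fell, Uba3 (-0.66 ± 0.17) of the Nedd8 pathway and Sae1 (-0.63 ± 0.15) of the Sumo pathway. With age the conjugating enzyme Ube2a rose by 0.91 ± 0.21 (limma adjusted p = 0.0097). It was the 1 called gene of 17 (5.88%), where 4.94% of all tested probe sets were called. The deubiquitinase Usp10 rose with alpha-tocopherol (0.68 ± 0.17) and with both tocopherols (0.59 ± 0.17), as the 1 called gene of 16 deubiquitinases and shuttle factors in each. That is 6.25% of the list, against 21.7% of all tested probe sets with alpha-tocopherol and 6.43% with both. Of 12 tested ubiquitin ligases of muscle 0 were called by limma in any comparison, with 2 or 3 at an unadjusted p below 0.05 in each.

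The inducible catalytic genes that the rule left out were not called. Psmb8 differed by 0.33 ± 0.27 with age, -0.36 ± 0.27 with alpha-tocopherol and -0.48 ± 0.27 with both, and Psmb9 by 0.06 ± 0.38, -0.58 ± 0.38 and -0.32 ± 0.38. Interferon-induced genes, the class they belong to, held 1 called gene of 12 with age, B2m, a class I antigen presentation gene (1.08 ± 0.31). With alpha-tocopherol B2m fell (-0.93 ± 0.31) and Irf1 rose (0.42 ± 0.15), and with both 0 were called by limma, with 1 at an unadjusted p below 0.05. The shares of this list called were 8.33% with age and 16.7% with alpha-tocopherol. Of all tested probe sets 4.94% were called with age, 21.7% with alpha-tocopherol and 6.43% with both.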

How the data were processed

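Each animal's heart RNA was hybridized to 1 Affymetrix murine array. Per the labels' protocols, polyadenylated RNA was purified and biotin-labelled complementary RNA made from it. The deposited table holds linear intensity values, one per probe set and array, and which software made them is not stated in the labels. Averaged without the top and bottom 2%, every array's deposited intensity came to 1501 or 1501.1, so the authors had scaled the arrays. Array medians lay within 0.115 (log2), so the scaling was kept.

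Values were taken as log2(intensity + 58). Controls (66 probe sets) were dropped, as were the 40% of other probe sets with the lowest mean (below an intensity of about 362), which left 7453. A model of 4 group means was fitted to 20 arrays by limma 3.58.1 (R 4.3.3), with trended and robust eBayes and 16 residual degrees of freedom. It was tested on simulated data with independent noise for each probe set and array. That noise held no differences between whole arrays, so the simulation does not bear on those described above. Adjusted p-values are two-sided. Intervals are 95% with 16 degrees of freedom. Of 12422 probe sets that are no controls, 10833 had 1 symbol, 396 several and 1193 none; 10817 matched the RefSeq table of GRCm38.p6 and 0 symbols changed. Array measures were compared by exact permutation. Named were called members, the catalytic genes with Psmd14, the 3 largest and smallest differences and members with groups apart. The members, lists and tests were chosen with earlier results of these data known. Same-numbered samples of different groups are different animals, and their deviations correlated between -0.084 and 0.10, so the numbers do not pair them. Alternatives were pseudocounts, filters, scalings, variance settings, array weights, fits of the compared groups, a replicate block, 2 covariates, omitted animals and the mean of a gene's probe sets.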

Additional observations from a re-analysis of the deposited data

Results flagged for a closer look

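Within groups of 5 animals, 80 group levels of the 20 named members were examined for a single animal far from the other 4, and 13 were found. For independent, normally distributed values about 1 in 20 would be expected. The members were named from these same values and share their animals. The share over all probe sets was not computed, so an excess is not shown. Old control 3 was lowest for Psmb7 (3574 against 5047 to 5291) and Psmc3 (2210 against 3555 to 4052). Old control 4 was lowest for Psmd1 (3632 against 5669 to 6491) and highest for Psmd11 (6369 against 3984 to 4339). In the alpha-tocopherol group, animal 3 was lowest for Psmd14 (1047 against 1685 to 1767) and Psmb5 (3884 against 4805 to 5200), and animal 5 was lowest for Psma4 (4385 against 5456 to 5900). Animal 4 was highest there for Psmd4 (8007 against 5883 to 6383) and Psmb10 (7584 against 3556 to 4205). In the group fed both tocopherols, animal 3 was lowest for Psmd5 (255.2 against 1849 to 2380) and animal 1 for Psmb2 (6761 against 8925 to 9870). Young control 5 was lowest for Psmd6 (5218 against 6132 to 6337) and Psme3ip1 (1052 against 1456 to 1599).

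The effects of the diets against the same old controls differed for Psmb5, by 0.50 (alpha-tocopherol -0.64, both -0.13; limma adjusted p = 0.031), and for Psmd6, by 0.396 (-0.55 and -0.15; limma adjusted p = 0.042).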

How the results depend on the processing

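In the age comparison 0 members were called in the reported fit, 2 with a stricter filter on dim probe sets, 4 with array weights, 2 without young control 3 and old control 3, and 0 to 2 without 1 animal. With alpha-tocopherol 10 were called, but 1 when hybridization was a covariate, 2 when 18S was, and 10 to 12 without 1 animal; quantile normalization, median centring and the replicate block each gave 10 or 11. With both tocopherols 5 were called, 8 with array weights, 3 without the filter, 3 with the compared groups alone, 2 with the hybridization covariate, 2 without old controls 1 and 4, 2 without young control 3 and old control 3, and 2 to 5 without 1 animal. Between the diets 2 were called; the compared groups alone and either covariate gave 0, no filter, both scalings, no trend, array weights, the replicate block and the mean of probe sets gave 1, and fits without 1 animal gave 0 to 2. The replicate block gave 0, 10, 4 and 1 calls in the 4 comparisons. The causes were not tested.

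The members' median with both tocopherols (-0.0595) turned to 0.00671 without old controls 1 and 4 and to 0.0105 with the mean of a gene's probe sets; the medians of the other comparisons kept their sign. Signs also turned for these members, which were not called in the reported fits. Psmb10 with age was -0.0014 after quantile normalization, -0.029 with array weights, -0.0054 with the 18S covariate, -0.0392 without young control 3 and old control 3, and -0.0596 to 0.0482 without 1 animal (-0.0126 and -0.0264 without young controls 4 and 5). Psmb6 with alpha-tocopherol was 0.16 with the 18S covariate. With both tocopherols Psmb7 was 0.0084 without old controls 1 and 4, and Psmb5 was 0.27 as the mean of its probe sets. Between the diets Psmb10 was -0.265 to 0.0053 without 1 animal, above 0 without animal 4 of the alpha-tocopherol group, and Psmd5 was -0.707 to 0.0334, above 0 without animal 3 of the group fed both.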
